A study of Mus musculus with 16 samples.

Results

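The 7 genes described here act on arginine and on itaconate in myeloid cells, and were taken by name (Arg1, Arg2, Nos2, Slc7a2, Ass1, Odc1 and Acod1) from a deposited table of 20200 genes. All 7 were found, and all 7 were among the 11998 genes tested. The cells came from the interface tissue around the grafted tendon in the bone tunnel of 12-week-old male wild-type C57BL/6 mice (C57BL/6J in the methods) after anterior cruciate ligament reconstruction (ACLR), and no group came from mice without surgery. They were flow-sorted on postoperative day 1 and day 14 into 4 myeloid populations, each with 2 libraries on each day, 16 libraries in 8 groups. All gates took live, lineage-negative, CD45+ cells. CD9+ macrophages were Ly6G-, CD11b+, F4/80+ and CD9+, a gate that did not exclude CX3CR1. CX3CR1+ macrophages were Ly6G-, CD11b+, F4/80+, CX3CR1+ and CD9-. F4/80- myeloid cells were Ly6G-, CD11b+ and F4/80-, and neutrophils were Ly6G+ and Ly6C+. Each library was made from the pooled cells of several mice, so the spread between libraries is the spread between pools. The mice were too few for a separate pool behind every library, so populations of a day shared mice, and values from a fit with the replicate number as a block are given where they change a call.

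Arginine enters cells through cationic amino acid transporters such as the one encoded by Slc7a2, and is then used by competing enzymes. The arginases, cytosolic Arg1 and mitochondrial Arg2, split it into urea and ornithine, and Odc1 turns ornithine into putrescine, the first of the polyamines. The inducible nitric oxide synthase Nos2 turns arginine into nitric oxide and citrulline, and Ass1 catalyses the rate-limiting step that recycles citrulline to arginine. Acod1, also known as Irg1, decarboxylates the Krebs cycle intermediate cis-aconitate to itaconate, an anti-inflammatory metabolite of activated macrophages and neutrophils. In mouse macrophages Arg1 is known as a target of IL-4, IL-13 and hypoxia, whereas Nos2 and Acod1 are known as targets of Toll-like receptors and interferons.

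In mm10, Slc7a2 lies on chr8:40862396-40922308 (plus strand), Arg1 on chr10:24915221-24927484 (minus strand), Arg2 on chr12:79130777-79156301 (plus), Nos2 on chr11:78920787-78960254 (plus), Ass1 on chr2:31470207-31520672 (plus), Odc1 on chr12:17544794-17551505 (plus) and Acod1 on chr14:103046977-103056573 (plus). Exons of Arg2 overlap those of Vti1b and Gm48780 on the opposite strand, and exons of Slc7a2 overlap those of the long noncoding RNA Gm26584. The strand setting of the read counting is not given in the sources used here, so reads of such pairs may not be separated. Over the 16 libraries Vti1b had 41.9 to 91.5 CPM (counts scaled to the library total), above the Arg2 level in most groups, and Gm48780 had 0.0705 to 2.27. The RefSeq promoter table (GRCm38.p6) holds 3 of the 7 genes. Their 250 bases before the RefSeq transcription start are shown, since the table held no window for the other members. Each RefSeq start lies downstream of the gene start given above, so the end of each window falls inside the gene as annotated there. The levels of these 3 genes across the populations took 3 different forms: Odc1 nearly even, Ass1 lowest in neutrophils and Acod1 highest in neutrophils. A link between these sequences and the levels was not tested. Capitals mark matches to the motifs searched.
Ass1 promoter (chr2:31470020-31470269, plus strand): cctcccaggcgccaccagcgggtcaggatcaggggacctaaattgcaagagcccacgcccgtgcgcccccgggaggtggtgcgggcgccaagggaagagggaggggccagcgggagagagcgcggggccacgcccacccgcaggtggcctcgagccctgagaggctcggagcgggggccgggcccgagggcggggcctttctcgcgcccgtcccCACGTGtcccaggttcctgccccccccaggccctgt
Odc1 promoter (chr12:17544623-17544872, plus strand): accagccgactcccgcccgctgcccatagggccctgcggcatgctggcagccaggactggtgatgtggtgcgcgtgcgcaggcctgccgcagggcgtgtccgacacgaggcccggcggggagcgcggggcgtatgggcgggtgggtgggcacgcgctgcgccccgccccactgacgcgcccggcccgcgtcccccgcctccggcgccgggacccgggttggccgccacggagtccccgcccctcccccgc
Acod1 promoter (chr14:103046762-103047011, plus strand): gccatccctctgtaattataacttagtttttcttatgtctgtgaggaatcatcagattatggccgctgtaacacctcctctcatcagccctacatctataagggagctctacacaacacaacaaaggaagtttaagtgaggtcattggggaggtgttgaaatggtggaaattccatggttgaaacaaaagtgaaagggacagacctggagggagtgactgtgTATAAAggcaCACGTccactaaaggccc
The Ass1 sequence holds an E-box (CACGTG) at positions -36 to -31 from the start, which also contains the hypoxia response motif ACGTG on both strands. The Acod1 sequence holds a TATA box (TATAAA) at -28 to -23 and ACGTG on the reverse strand at -18 to -14. No motif searched was found in the Odc1 sequence. Among all 32851 promoter windows of 300 bases (250 before and 50 after the start), 7.15% held CACGTG, 19.6% held ACGTG and 13.6% held TATAAA on either strand. The motifs TTCNNNGAA (STAT, 8.3% of windows), GAAANNGAA (interferon response, 8.56%), TTNCNNAA (C/EBP, 40.7%), TGANTCA (AP-1, 7.81%) and the kappaB consensus (4.51%) had no match in the 300-base windows of these 3 genes. The bases G and C made up 75.6% of the Ass1 sequence, 80% of that of Odc1 and 44.4% of that of Acod1.

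Libraries held between 9233952 and 19814119 counts, with 10587857 to 19814119 on day 1 and 9233952 to 12721779 on day 14. The 2 libraries of a group correlated with r = 0.976 to 0.988 on log2 CPM, except those of CD9+ cells on day 1 (r = 0.935). Mean Adgre1 (F4/80) was 139 to 180 CPM in the F4/80+ groups and 9.02 to 42.3 in the others, and mean Ly6g was 103 and 276 CPM in neutrophils and at most 9.14 elsewhere, whereas mean Cd9 was higher in neutrophils (674 and 345 CPM) than in the CD9+ sort (148 and 162). Mean Cx3cr1 was 140 and 271.8 CPM in the CX3CR1+ sort on day 1 and day 14, and 83.05 and 92.59 in the CD9+ sort. It was 3.23 to 39.2 CPM in the other groups. Of 7 macrophage or monocyte markers and 8 neutrophil markers, all had counts in both libraries of every group. Summed neutrophil markers lay at 27240 to 57910 CPM in neutrophils, 14060 to 17440 in F4/80- cells, 2614 to 7925 in CD9+ cells and 441 to 768 in CX3CR1+ cells. Summed macrophage or monocyte markers reached 1169 to 3763 CPM in the F4/80+ populations, and 200 to 665 in the other populations. In CD9+ cells the summed CPM of 5 eosinophil markers (Siglecf, Epx, Prg2, Ccr3 and Il5ra) was 503 to 566 on day 1 but 5841 to 9416 on day 14, against 16.9 to 116 in the other populations, where Il5ra was at 0 in CX3CR1+ cells on day 1. The 6 basophil or mast cell markers summed to 968 to 1891 CPM in F4/80- cells and 104 to 342 in CD9+ cells. Dendritic, lymphoid, stromal or endothelial and erythroid marker lists summed to at most 74.1 CPM in any library. The part of these other cells in the results on CD9+ and F4/80- cells was not tested.

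From day 1 to day 14, 4 of the 7 genes fell in each population, and 0 rose. Calls needed a Benjamini-Hochberg adjusted p below 0.05 in the edgeR quasi-likelihood fit together with a log2 fold change of 1 or more in either direction. In CD9+ macrophages, CX3CR1+ macrophages and F4/80- cells the genes that fell were Slc7a2, Arg1, Arg2 and Nos2, and in neutrophils they were Arg1, Nos2, Ass1 and Acod1. In CX3CR1+ cells the number that fell was 2 without the second library of day 1 and also 2 without the first of day 14, the calls of Slc7a2 and Arg2 being lost. Among all genes tested, 8.23% were called in CD9+ cells (3.48% lower, 4.75% higher), 5.86% in CX3CR1+ cells (3.47% lower, 2.39% higher), 3.25% in F4/80- cells (2.24% lower, 1.01% higher) and 14.1% in neutrophils (10.9% lower, 3.15% higher). The median log2 fold change of the 7 genes was -1.82 in CD9+ cells, -1.33 in CX3CR1+ cells, -2.34 in F4/80- cells and -2.20 in neutrophils, beside medians of 0.00, 0.03, -0.02 and -0.02 over all genes tested. At an unadjusted p under 0.05, 0 of the 7 genes were higher and 6, 5, 6 and 7 were lower in these populations, and DESeq2 called 4 lower and 0 higher in each. A lower level in a sorted population can come from fewer cells of a type or from less RNA per cell, and these cannot be told apart in bulk libraries.

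**Figure D1:**
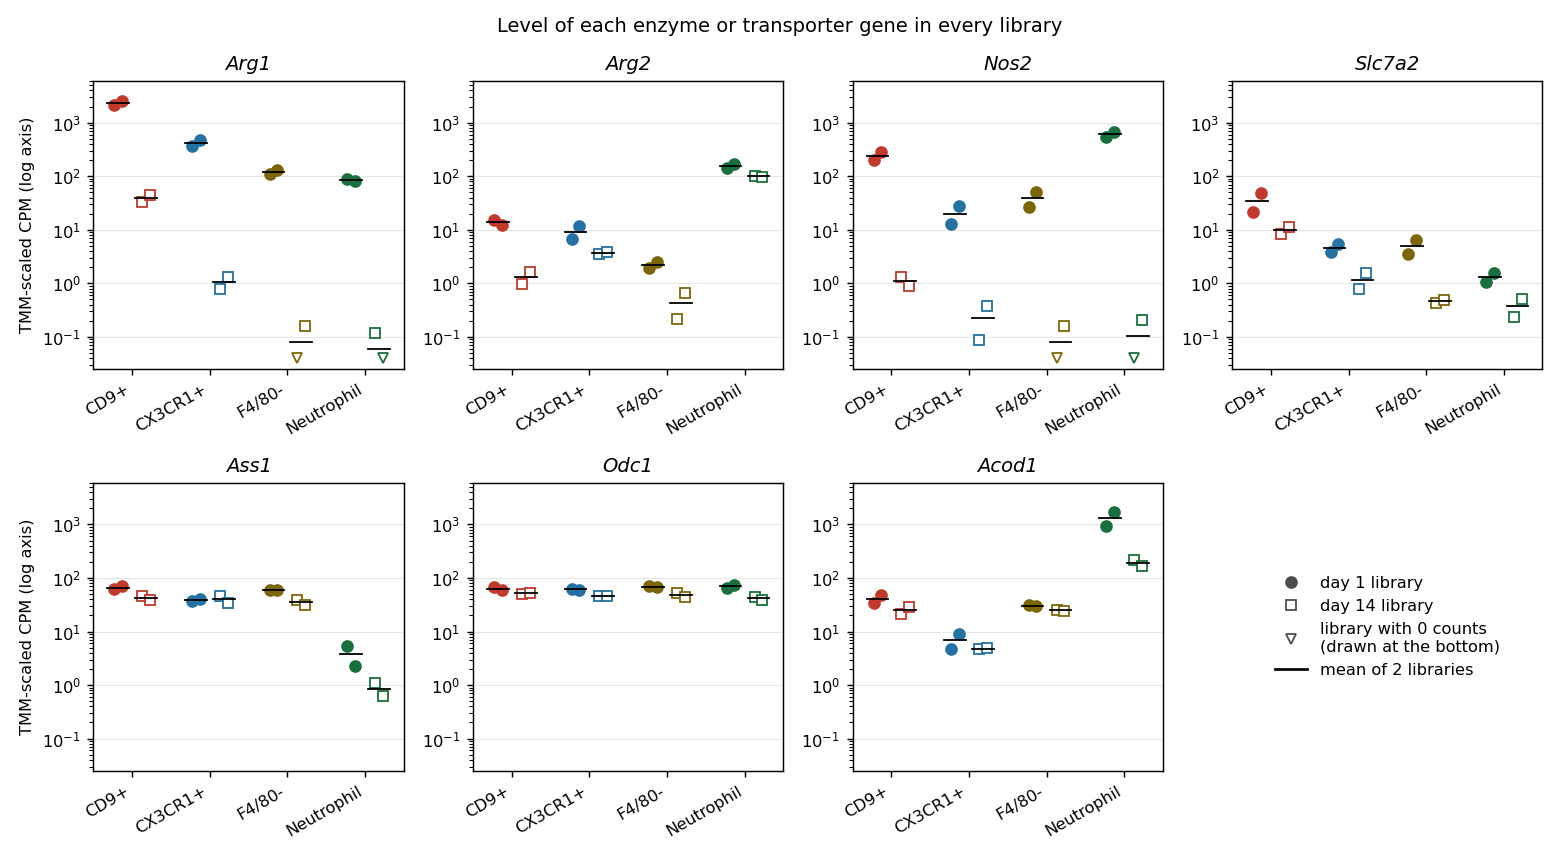
CPM of each of the 7 genes in every library, scaled by TMM factors, on a log axis, by population and day (filled circles day 1, open squares day 14, lines the mean of 2 libraries, triangles at the bottom libraries with 0 counts). Arg1 fell from 2173 and 2594 to 33.4 and 43.9 CPM in CD9+ cells, whereas Odc1 stayed between 39.2 and 74.2 CPM in all 16 libraries.

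Slc7a2, the inducible arginine transporter of macrophages, was highest in CD9+ macrophages on both days. On day 1 its CPM was 21.6 and 48.3 in CD9+ cells, 3.81 and 5.42 in CX3CR1+ cells, 3.598 and 6.44 in F4/80- cells and 1.05 and 1.57 in neutrophils. On day 14 it was 8.51 and 11.2 in CD9+ cells, 0.782 and 1.57 in CX3CR1+ cells, 0.435 and 0.488 in F4/80- cells and 0.240 and 0.513 in neutrophils. Both CD9+ libraries exceeded every library of the other populations on the same day, and the day 14 libraries lay below those of day 1 in each population. Such positions of libraries are given here and below as a description. When labels are exchanged, 2 libraries separate from 2 others in either direction with a probability of 0.333. The log2 fold change over time was -1.82 in CD9+ cells (SE 0.42, adjusted p = 0.00775), -1.97 in CX3CR1+ cells (SE 0.50, adjusted p = 0.0168) and -3.42 in F4/80- cells (SE 0.56, adjusted p = 0.00189). In neutrophils, with 32 counts on day 1 and 7 on day 14, it was -1.73 and missed the threshold (SE 0.73, adjusted p = 0.0864), which it passed with the replicate block (adjusted p = 0.0197). The call in CD9+ cells was lost without the second day 1 library (log2 fold change -1.13, adjusted p = 0.0847), without the first day 14 library (adjusted p = 0.0904) and in a fit of the 4 compared libraries alone (adjusted p = 0.0599). The call in CX3CR1+ cells was lost without the second library of day 1 (adjusted p = 0.107) or the first of day 14 (log2 fold change -1.54, adjusted p = 0.175). Between neighbours in level, CD9+ cells exceeded F4/80- cells 6.96-fold on day 1 (adjusted p = 0.000195) and CX3CR1+ cells 8.38-fold on day 14 (adjusted p = 0.000278). F4/80- and CX3CR1+ cells overlapped on day 1, with a log2 difference of 0.13 (95% CI -0.76 to 1.02). On day 14 CX3CR1+ cells were not called against F4/80- cells (log2 1.33, adjusted p = 0.132) or neutrophils (1.58, adjusted p = 0.0695), and were called with the replicate block (1.30, adjusted p = 0.0421, and 1.59, adjusted p = 0.0154).

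Arg1 was the most abundant of the 7 transcripts in CD9+ macrophages on day 1 and fell in all 4 populations. On day 1 its CPM was 2173 and 2594 in CD9+ cells, 367 and 481 in CX3CR1+ cells, 111 and 129 in F4/80- cells and 87.1 and 82.1 in neutrophils. On day 14 it was 33.4 and 43.9 in CD9+ cells (349 and 434 counts) and 0.782 and 1.30 in CX3CR1+ cells (9 and 14 counts), while F4/80- libraries held 0 and 2 counts and neutrophil libraries 1 and 0. The 4 populations did not overlap on day 1, and on day 14 CD9+ cells stood above the other 3 populations. Per kb of exon, Arg1 ranked at place 24 of all genes in CD9+ cells on day 1 and at place 2167 on day 14. The log2 fold change over time was -5.95 in CD9+ cells (SE 0.24, 95% CI -6.45 to -5.44, adjusted p = 1.46e-09) and -8.67 in CX3CR1+ cells (SE 0.31, 95% CI -9.32 to -8.02, adjusted p = 2.48e-10). In CD9+ cells 1.64% of the day 1 level was left on day 14, and in CX3CR1+ cells 0.246%. In F4/80- cells the counts went from 5098 to 2, a ratio of 1566 after scaling with an exact 95% interval of 433 to 12940. In neutrophils they went from 2103 to 1, a ratio of 1533 with an interval of 275 to 60560. These intervals cover counting error only, and the fitted log2 fold changes of -10.45 and -10.36 (adjusted p = 1.16e-09 and 1.22e-09) rest on the prior count for such groups.

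The level of Arg1 followed the order CD9+, CX3CR1+, F4/80- and neutrophils on both days. On day 1, CD9+ cells exceeded CX3CR1+ cells 5.62-fold (log2 2.49, SE 0.20, adjusted p = 9.3e-07), and these exceeded F4/80- cells 3.54-fold (log2 1.82, SE 0.20, adjusted p = 3.19e-06). F4/80- cells and neutrophils differed by a log2 of 0.50 (95% CI 0.09 to 0.91, adjusted p = 0.0311), which is under the fold change required for a call and was 1.11, and called, with scaling by library size only. On day 14, CD9+ cells exceeded CX3CR1+ cells 37.2-fold (log2 5.21, SE 0.31, adjusted p = 1.71e-08). CX3CR1+ cells exceeded F4/80- cells, with 23 counts against 2 (log2 3.5997, SE 0.84, adjusted p = 0.00231), and the lowest 2 populations overlapped. The fall was smaller in CD9+ than in CX3CR1+ cells (difference of the log2 fold changes 2.72, SE 0.38, adjusted p = 0.00143).

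Arg2, the mitochondrial arginase, was highest in neutrophils, which stood above every library of the other populations on both days. Its CPM in neutrophils was 144 and 166 on day 1, then 103 and 95.9 on day 14. On day 1 it was 15.1 and 12.4 in CD9+ cells, 6.83 and 11.7 in CX3CR1+ cells and 1.90 and 2.47 in F4/80- cells. On day 14 these values were 0.957 and 1.62, 3.56 and 3.79, and 0.217 and 0.651, so that CX3CR1+ cells then stood above CD9+ cells. Neutrophils exceeded CD9+ cells, the next in level, 11.3-fold on day 1 (log2 3.49, SE 0.25, adjusted p = 2.35e-08) and CX3CR1+ cells 27.0-fold on day 14 (log2 4.75, SE 0.29, adjusted p = 1.57e-09). CD9+ and CX3CR1+ cells did not pass the test on day 1 (log2 0.58, 95% CI 0.05 to 1.11, adjusted p = 0.132), but passed without the second CX3CR1+ library (1.01, adjusted p = 0.0339). On day 14 CX3CR1+ cells were 2.86-fold higher (log2 1.52, SE 0.39, adjusted p = 0.0086). This call was lost without the first CD9+ library of day 14 (adjusted p = 0.11). CD9+ and F4/80- cells did not pass the test on day 14 (26 and 11 counts, adjusted p = 0.0773) but passed with DESeq2 (adjusted p = 0.0419).

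Arg2 fell in CD9+ cells by 3.42 on the log2 scale (SE 0.34, adjusted p = 1.56e-05), and the fall was larger than in CX3CR1+ cells (difference -2.10, SE 0.46, adjusted p = 0.0222) and in neutrophils (difference -2.78, SE 0.42, adjusted p = 0.000643). The difference from CX3CR1+ cells was not called in the fit of the compared libraries alone (adjusted p = 0.13). In CX3CR1+ cells the log2 fold change was -1.33 (SE 0.28, adjusted p = 0.00607). That call was lost without the second CX3CR1+ library of day 1 (-0.89, adjusted p = 0.0824), or without the first (adjusted p = 0.0659) or the second (adjusted p = 0.0524) of day 14. In F4/80- cells the log2 fold change was -2.34 (SE 0.46, adjusted p = 0.00662), and the call was lost without the second library of day 1 (adjusted p = 0.0514) or the first of day 14 (-1.73, adjusted p = 0.13). In neutrophils it was -0.64 (95% CI -1.13 to -0.16, adjusted p = 0.0459), under the fold change required, with both day 14 libraries below both of day 1.

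The split of arginase transcripts between the 2 genes is given as a description. Scaled per kb of exon, Arg1 made up 98.9% and 99.3% of the sum of Arg1 and Arg2 in the CD9+ libraries of day 1, against 95.7% and 94.6% for day 14. In CX3CR1+ cells its share went from 97.2% and 96.3% to 12.3% and 17.96%, where 50 and 55 arginase counts stand behind it. In neutrophils the share was 27.9% and 24.1% on day 1, and on day 14 a single Arg1 count stood beside 857 and 935 counts of Arg2. In F4/80- cells Arg1 made up 97.4% and 97.1% on day 1, and too few counts (3 and 10) remained on day 14 to give a share.

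Nos2, the inducible nitric oxide synthase, was highest in neutrophils on day 1 and was nearly lost from every population by day 14. On day 1 its CPM was 547 and 674 in neutrophils, 203 and 284 in CD9+ cells, 27.1 and 50.01 in F4/80- cells and 12.96 and 27.2 in CX3CR1+ cells. On day 14 the counts were 14 and 9 in CD9+ cells, 1 and 4 in CX3CR1+ cells, 0 and 2 in F4/80- cells and 0 and 2 in neutrophils. Neutrophils and CD9+ cells overlapped with no other population on day 1, while F4/80- and CX3CR1+ cells overlapped. The log2 fold change over time was -7.74 in CD9+ cells (SE 0.49, 95% CI -8.79 to -6.69, adjusted p = 3.04e-07), which left 0.481% of the day 1 level. In CX3CR1+ cells the counts went from 819 to 5, a scaled ratio of 87.0 with an exact 95% interval of 37.1 to 269 (adjusted p = 1.36e-05). In F4/80- cells they went from 1652 to 2 (ratio 507, interval 140 to 4194, adjusted p = 4.7e-06), and in neutrophils from 15017 to 2 (ratio 5472, interval 1514 to 45190, adjusted p = 8.84e-09). On day 1 neutrophils exceeded CD9+ cells 2.51-fold (log2 1.33, SE 0.32, adjusted p = 0.0016), and these exceeded F4/80- cells 6.31-fold (log2 2.65, SE 0.33, adjusted p = 3.41e-05). F4/80- and CX3CR1+ cells differed by a log2 of 0.95 (95% CI 0.25 to 1.64, adjusted p = 0.0334), just under the fold change required, and were called without the second CX3CR1+ library (adjusted p = 0.00533) or the first F4/80- library (adjusted p = 0.0114). On day 14 no pair of neighbours in level passed the test, the adjusted p for CD9+ against CX3CR1+ cells being 0.141, against 0.0346 with DESeq2 and 0.0363 with the replicate block. CD9+ cells were called above neutrophils (23 counts against 2, adjusted p = 0.0423), the reverse of the order on day 1, but this call was lost when any 1 of the 4 libraries was left out (adjusted p = 0.0573 to 0.163). Against F4/80- cells the adjusted p was 0.0739, and 0.0125 with the replicate block.

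Arg1 and Nos2 compete for arginine, and their ratio on day 1 is given per library as a description. Per kb of exon, Arg1 exceeded Nos2 21.2- and 18.1-fold in the CD9+ libraries, 56.1- and 35.0-fold in the CX3CR1+ libraries and 8.09- and 5.10-fold in the F4/80- libraries. In neutrophils the ratio was 0.315 and 0.241, so that Nos2 was the higher of the pair in both libraries. No library of one population fell into the range of another. On day 14 the ratio was 49.4 and 95.5 in CD9+ cells, with 14 and 9 counts of Nos2, and the counts of the other populations were too few to compare.

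**Figure D2:**
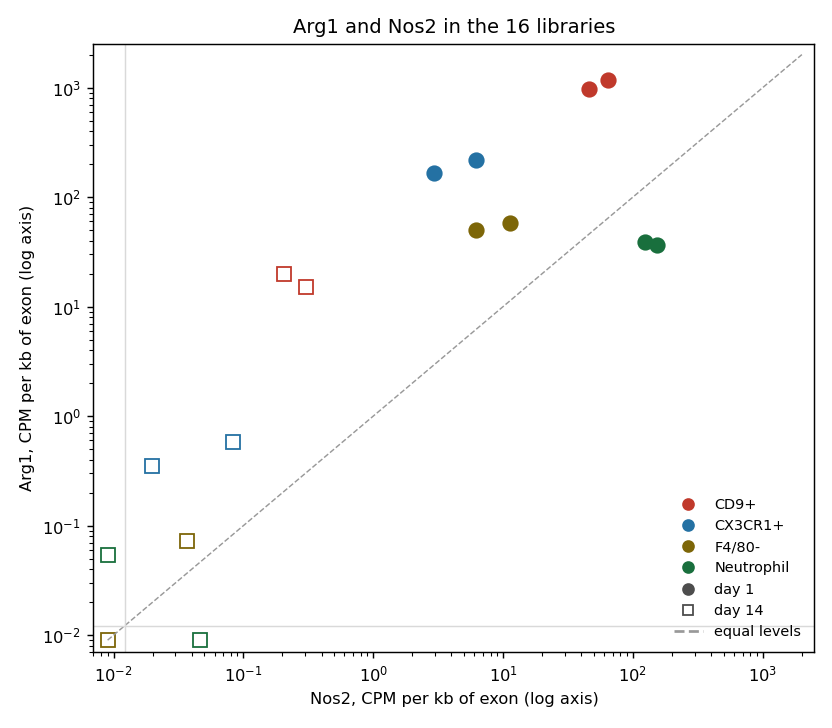
Arg1 against Nos2 in CPM per kb of exon, on log axes, for each of the 16 libraries (filled circles day 1, open squares day 14, points left of or under the grey lines have 0 counts of that gene, dashed line equal levels). On day 1 the 2 neutrophil libraries lie under the dashed line and the other 6 above it, and all day 14 libraries lie to the left of those of day 1.

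Ass1, which returns citrulline to the arginine pool, lay between 31.9 and 69.5 CPM in all libraries other than those of neutrophils and was lowest in neutrophils. On day 1 its CPM was 61.9 and 69.5 in CD9+ cells, 37.7 and 40.2 in CX3CR1+ cells, 60.6 and 59.1 in F4/80- cells and 5.31 and 2.27 in neutrophils. On day 14 it was 45.3 and 39.0, 46.4 and 34.5, 38.9 and 31.9, and 1.08 and 0.615 in the same order. Neutrophils were lowest on both days, at a 10.3-fold lower mean than CX3CR1+ cells on day 1 (log2 3.34, SE 0.28, adjusted p = 6.49e-08) and a 41.7-fold lower mean than F4/80- cells on day 14 (log2 5.39, SE 0.37, adjusted p = 9.48e-09). Among the other populations CD9+ and F4/80- cells on day 1 differed by a log2 of 0.13 (95% CI -0.36 to 0.63), a difference that was -0.15 with scaling by library size. Both stood above CX3CR1+ cells on day 1 without overlap of libraries, under the fold change required for a call. The log2 difference was 0.62 for F4/80- cells (1.54-fold, 95% CI 0.12 to 1.11, adjusted p = 0.0484) and 0.75 for CD9+ cells (adjusted p = 0.0406). On day 14 the 95% CI was -0.45 to 0.57 for CD9+ against CX3CR1+ cells and -0.31 to 0.70 for CX3CR1+ against F4/80- cells. Over time Ass1 fell in neutrophils (log2 fold change -2.20, SE 0.44, adjusted p = 0.00157), from 97 to 15 counts. It was not called in CD9+ cells (-0.64, adjusted p = 0.076), F4/80- cells (-0.76, adjusted p = 0.0723) or CX3CR1+ cells (0.06, 95% CI -0.45 to 0.56, adjusted p = 0.918). The change in CX3CR1+ cells exceeded that in neutrophils by a log2 of 2.25 (SE 0.50, adjusted p = 0.00803), a call that was lost without the second neutrophil library of day 14 (adjusted p = 0.0823).

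Odc1, the rate-limiting enzyme of polyamine synthesis, varied least of the 7 genes. Its CPM was 59.9 to 74.2 in the 8 libraries of day 1 and 39.2 to 52.6 in the 8 libraries of day 14, and the day 14 libraries lay below those of day 1 in each population. None of the 4 changes over time reached the fold change required for a call. The log2 fold change was -0.29 in CD9+ cells (95% CI -0.58 to 0.0025, adjusted p = 0.161), -0.41 in CX3CR1+ cells (95% CI -0.69 to -0.12, adjusted p = 0.0637), -0.51 in F4/80- cells (95% CI -0.79 to -0.22, adjusted p = 0.0361) and -0.73 in neutrophils (95% CI -1.02 to -0.43, adjusted p = 0.00109). F4/80- cells and neutrophils passed the threshold on the adjusted p alone. Between neighbouring populations no difference passed the test, and the intervals reached at most 0.41 on day 1 and 0.44 on day 14 in log2. With scaling by library size only, F4/80- cells exceeded neutrophils on day 1 by a log2 of 0.60 (adjusted p = 0.00247), against -0.01 with TMM factors.

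Acod1, the enzyme that makes itaconate, was highest in neutrophils on both days and fell there. Its CPM in neutrophils was 928 and 1737 on day 1, falling to 219 and 169 on day 14. On day 1 it was 33.4 and 48.6 in CD9+ cells, 31.5 and 29.6 in F4/80- cells and 4.77 and 8.86 in CX3CR1+ cells. On day 14 it was 21.5 and 28.9, 25.6 and 23.9, and 4.69 and 4.90 in the same order. Neutrophils exceeded CD9+ cells 32.5-fold on day 1 (log2 5.03, SE 0.32, adjusted p = 7.39e-09) and 7.68-fold on day 14 (log2 2.94, SE 0.30, adjusted p = 6.2e-07). CD9+ and F4/80- cells did not pass the test on either day. The 95% CI was -0.19 to 1.03 on day 1 (adjusted p = 0.294), where their libraries did not overlap. On day 14 it was -0.61 to 0.66, and their libraries overlapped. F4/80- cells exceeded CX3CR1+ cells 4.48-fold on day 1 (adjusted p = 5.09e-05) and 5.16-fold on day 14 (adjusted p = 6.51e-05). The log2 fold change over time was -2.78 in neutrophils (SE 0.29, 95% CI -3.40 to -2.17, adjusted p = 4.88e-06). In CD9+ cells it was -0.70 (95% CI -1.33 to -0.07, adjusted p = 0.119), in CX3CR1+ cells -0.49 (95% CI -1.27 to 0.28, adjusted p = 0.432) and in F4/80- cells -0.30 (95% CI -0.92 to 0.31, adjusted p = 0.631). The fall in neutrophils was larger than in CD9+ cells by a log2 of 2.09 (SE 0.40, adjusted p = 0.00401), than in CX3CR1+ cells by 2.29 (SE 0.46, adjusted p = 0.00429) and than in F4/80- cells by 2.48 (SE 0.40, adjusted p = 0.000853).

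Relative to the neutrophil mean of the same day, Acod1 reached 2.51% and 3.65% in the day 1 CD9+ libraries, against 11.1% and 14.9% for day 14. In F4/80- libraries it reached 2.37% and 2.22% on day 1, against 13.2% and 12.4% on day 14. The neutrophil marker Ly6g stood at 1.85% and 0.102% in CD9+ cells on day 1, then 1.81% and 0.953%, and at 9.35% and 6.74%, then 2.97% and 3.66%, in F4/80- cells. Cxcr2, another neutrophil gene, stood at 2.65% and 0.931%, then 2.34% and 0.853%, in CD9+ cells and at 8.62% and 6.55%, then 4.07% and 3.98%, in F4/80- cells. Of the other 6 neutrophil markers in CD9+ cells, Csf3r, Mmp8 and Retnlg stood at 2.355% to 5.43% on day 1, then 0.419% to 7.55%. S100a8, Ltf and Camp stood there at 4.41% to 73.9% on day 1, then 8.68% to 44.98%. Of the same 6 markers in F4/80- cells, Csf3r stood at 5.74% and 5.76% on day 1, then 6.10% and 6.89%. Mmp8 and Retnlg were at 4.37% to 5.45% on day 1 and 0.301% to 0.403% on day 14, while S100a8, Ltf and Camp were at 37.4% to 132% and then 29.97% to 89.1%. Over the same time the neutrophil mean of Acod1, to which its shares refer, went from 1332 to 194 CPM. The part of neutrophils in the Acod1 level of these libraries was not tested.

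**Figure D3:**
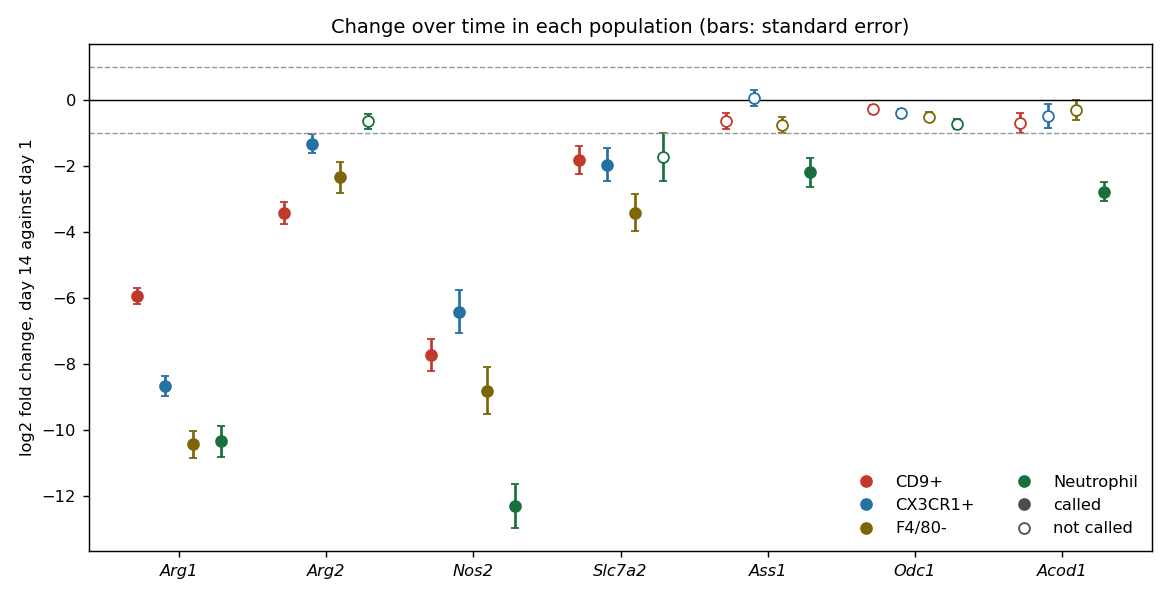
Log2 fold change of day 14 against day 1 for each gene and population, with the standard error as bars (filled points called, open points not called, dashed lines at log2 fold changes of -1 and 1). Arg1 and Nos2 show the lowest values, down to -12.32 for Nos2 in neutrophils, and the values of both genes in F4/80- cells and neutrophils rest on 1 or 2 counts on day 14.

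Across the pairs of populations on day 1, the number of the 7 genes called was 4 for CD9+ against CX3CR1+ cells (8.23% of all genes tested), 4 for CD9+ against F4/80- cells (15.4%), 6 for CD9+ cells against neutrophils (49.5%), 3 for CX3CR1+ against F4/80- cells (21.1%), 6 for CX3CR1+ cells against neutrophils (51%) and 5 for F4/80- cells against neutrophils (49%). Against CX3CR1+ cells, CD9+ cells were higher on day 1 in Slc7a2 (log2 2.92), Arg1 (2.49), Nos2 (3.6008) and Acod1 (2.59). Against F4/80- cells they were higher in Slc7a2 (2.79), Arg1 (4.31), Arg2 (2.65) and Nos2 (2.65). Against neutrophils they were higher in Slc7a2 (4.73), Arg1 (4.82) and Ass1 (4.09) and lower in Arg2 (-3.49), Nos2 (-1.33) and Acod1 (-5.03). CX3CR1+ cells were higher than F4/80- cells in Arg1 (1.82) and Arg2 (2.07) and lower in Acod1 (-2.18). They were higher than neutrophils in Slc7a2 (1.82), Arg1 (2.33) and Ass1 (3.34) and lower in Arg2 (-4.07), Nos2 (-4.93) and Acod1 (-7.62). F4/80- cells were higher than neutrophils in Slc7a2 (1.94) and Ass1 (3.95) and lower in Arg2 (-6.14), Nos2 (-3.98) and Acod1 (-5.45). On day 14 the numbers in the same order were 4 (14.2%), 2 (7.7%), 6 (49.5%), 3 (21.5%), 4 (48%) and 3 (48.7%). CD9+ cells then remained higher than CX3CR1+ cells in Slc7a2 (3.07), Arg1 (5.21) and Acod1 (2.39) and were lower in Arg2 (-1.52). They were called higher than F4/80- cells in Slc7a2 (4.39) and in Arg1, and higher than neutrophils in Slc7a2 (4.65), Ass1 (5.65), Arg1 and Nos2, where the lower group had 1 or 2 counts of the last 2 genes, and lower than neutrophils in Arg2 (-6.27) and Acod1 (-2.94). CX3CR1+ cells were higher than F4/80- cells in Arg1 and Arg2 (3.09) and lower in Acod1 (-2.37). They were higher than neutrophils in Arg1 and Ass1 (5.59) and lower in Arg2 (-4.75) and Acod1 (-5.33). F4/80- cells were higher than neutrophils in Ass1 (5.39) and lower in Arg2 (-7.85) and Acod1 (-2.97). These comparisons share libraries, since each population enters 3 of the 6 pairs of a day. When libraries were scaled by their totals alone, the median difference over all genes shifted in log2 by 0.33 to 0.61 toward the other populations in the comparisons with neutrophils, by -0.24 and -0.28 for CD9+ against CX3CR1+ and F4/80- cells on day 1, and by 0.19 for CD9+ cells over time.

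Whether the change over time differed between populations was tested as an interaction. Of the 7 genes, 2 were called for CD9+ against CX3CR1+ cells (2.28% of all genes tested), 1 for CD9+ against F4/80- cells (1.69%), 4 for CD9+ cells against neutrophils (8.03%), 0 for CX3CR1+ against F4/80- cells (1.01%), 2 for CX3CR1+ cells against neutrophils (9.09%) and 1 for F4/80- cells against neutrophils (7.73%). Between CX3CR1+ and F4/80- cells, edgeR gave 1 gene at an unadjusted p under 0.05, namely Ass1 (log2 difference 0.81, adjusted p = 0.387), and DESeq2 called 0. The genes called were Arg1 and Arg2 for the first pair, Arg1 for the second, Arg1, Arg2, Nos2 and Acod1 for the third, Ass1 and Acod1 for CX3CR1+ cells against neutrophils and Acod1 for F4/80- cells against neutrophils. With the replicate block, Nos2 was also called for CX3CR1+ cells against neutrophils (adjusted p = 0.0147, from 0.0786) and Arg2 for F4/80- cells against neutrophils (-1.70, adjusted p = 0.049, from 0.0517). The calls for Arg1 and Nos2 against F4/80- cells and neutrophils rest on groups with 1 or 2 counts on day 14.

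The other genes of these pathways, 99 in 6 lists, were read against the same shares of all genes. Of the 82 that were tested, 1 rose and 6 fell in CD9+ cells, where 4.75% and 3.48% of all genes tested rose and fell. In CX3CR1+ cells 2 rose and 6 fell (2.39% and 3.47% of all genes). In F4/80- cells 1 rose and 2 fell (1.01% and 2.24%), and in neutrophils 2 rose and 21 fell (3.15% and 10.9%). In the list of arginine transport and citrulline recycling (9 of 12 tested), Slc7a8, a transporter of neutral amino acids, fell in CD9+ cells from 198 to 75.02 mean CPM (log2 -1.40, adjusted p = 0.00197), in CX3CR1+ cells from 103 to 16.05 (-2.68, adjusted p = 1.64e-05) and in neutrophils from 15.9 to 1.99 (-2.99, adjusted p = 2.92e-05). Slc7a7, which exports cationic amino acids, fell in CD9+ cells (-1.56, adjusted p = 0.00412), and Slc7a6 of the same family fell in neutrophils (-1.97, adjusted p = 0.00369). In F4/80- cells 0 genes of this list were called by edgeR or DESeq2, and 3 were lower at an unadjusted p under 0.05. The list's median log2 fold change was -0.45, -0.52, -0.35 and -0.78 in CD9+, CX3CR1+ and F4/80- cells and neutrophils.

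Of the nitric oxide list (7 of 13 tested), 3 genes fell in neutrophils, all of them enzymes that make the cofactor tetrahydrobiopterin. Gch1, the first enzyme of that route, had 64.6 and 121 CPM in the day 1 neutrophil libraries, then 21.01 and 12.4 (log2 -2.48, adjusted p = 2.82e-05). Spr changed by -1.93 (adjusted p = 0.0362), from only 17 and 10 counts to 3 and 2. Pts changed by -1.03 (adjusted p = 0.0241), with day 1 libraries far apart at 33.1 and 74.97 CPM, then 26.3 and 26.5. In the other populations 0 were called by edgeR or DESeq2, and 1, in CD9+ cells, was higher at an unadjusted p under 0.05. The median was 0.35 in CD9+ cells, 0.04 in CX3CR1+ cells, -0.19 in F4/80- cells and -0.70 in neutrophils.

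Among the polyamine genes (14 of 18 tested), Smox, the oxidase that turns spermine back into spermidine, fell in all 4 populations. Its CPM was highest in neutrophils, at 550 and 738 on day 1, then 82.7 and 70.8 (log2 -3.07, adjusted p = 5.48e-07). It went from 68.6 and 137 to 8.13 and 10.2 in CD9+ cells (-3.48, adjusted p = 2.43e-06), from 51.3 and 63.3 to 18.2 and 17.4 in CX3CR1+ cells (-1.69, adjusted p = 0.000532) and from 17.99 and 20.9 to 7.90 and 8.30 in F4/80- cells (-1.26, adjusted p = 0.0124). Paox, a polyamine oxidase of peroxisomes, rose in neutrophils from 1.57 to 3.75 mean CPM (1.25, adjusted p = 0.0372), and no other gene of this list was called. The median of the list was 0.00, 0.10, -0.14 and -0.09 in CD9+, CX3CR1+ and F4/80- cells and neutrophils.

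Of the genes that lead from ornithine to proline, glutamate and creatine (9 of 11 tested), the creatine transporter Slc6a8 fell in CX3CR1+ cells from 5.003 to 0.446 mean CPM (log2 -3.45, adjusted p = 0.00675) and in neutrophils from 24 and 33 counts to 0 and 2 (adjusted p = 0.00896). Gatm, which makes the creatine precursor from arginine, fell in CX3CR1+ cells (-1.40, adjusted p = 0.00119). In neutrophils Aldh18a1, which starts proline synthesis, fell (-2.63, adjusted p = 0.0021), and Prodh, which degrades proline, rose from 3.20 to 14.4 mean CPM (2.15, adjusted p = 0.00029). In CD9+ cells 0 were called by either tool and 3 had an unadjusted p under 0.05, and in F4/80- cells edgeR called 0, with 5 at an unadjusted p under 0.05, and DESeq2 called 2 lower. The medians were 0.06, -0.41, 0.11 and 0.20 in the same order of populations.

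Of 20 tested genes of citrate, aconitate and itaconate (22 listed), only Clybl and Idh2 were called, both lower in neutrophils. Clybl, an enzyme of the breakdown of itaconate-derived citramalyl-CoA, had 126 and 97 counts in the neutrophil libraries of day 1 and 0 in those of day 14 (adjusted p = 5.93e-06). Idh2, the mitochondrial isocitrate dehydrogenase, changed by -1.38 (adjusted p = 0.000177). In CD9+, CX3CR1+ and F4/80- cells edgeR and DESeq2 called 0, and 2, 2 and 1 had an unadjusted p under 0.05. The median was -0.20 in CD9+ cells, -0.19 in CX3CR1+ cells, -0.17 in F4/80- cells and 0.17 in neutrophils.

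The list of factors and receptors known to act on transcription of Arg1, Nos2 or Acod1 (23 genes, all tested) held the most calls. Of these, 11 were lower in neutrophils, where 10.9% of all genes tested were lower. Il4ra, the shared receptor chain of IL-4 and IL-13, fell in CD9+ cells from 255 and 392.3 to 65.8 and 71.4 CPM (log2 -2.24, adjusted p = 1.45e-06), in CX3CR1+ cells from 298 and 269 to 82.2 and 79.0 (-1.81, adjusted p = 6.41e-06) and in F4/80- cells from 114 and 108 to 52.8 and 49.5 (-1.12, adjusted p = 0.000834). Hif1a, the hypoxia-inducible factor, fell by 1.58 in CD9+ cells (adjusted p = 7.77e-06) and by 1.58 in CX3CR1+ cells (adjusted p = 6.41e-06), and Il13ra1, a receptor for IL-13, fell by 1.54 in CD9+ cells (adjusted p = 3.89e-05). In neutrophils the called genes with the lowest values were Il13ra1 (-2.86, adjusted p = 2.82e-08), Irf5 (-2.04, adjusted p = 4.01e-08) and Il10ra (-1.94, adjusted p = 8.64e-07). Il4ra (-1.82, adjusted p = 1.18e-06) and Hif1a (-1.74, adjusted p = 5.48e-07) also fell in neutrophils. Cebpb, a C/EBP family factor of myeloid genes, rose in CX3CR1+ cells from 142 and 85.7 to 858 and 1011 CPM (3.03, adjusted p = 0.00783) and in F4/80- cells from 23.2 and 34.9 to 242 and 227 (3.01, adjusted p = 0.016). The neutrophil libraries of day 1 stood far apart in Cebpb, at 214 and 2493 CPM. Beside these, Myc rose in CD9+ cells (1.02, adjusted p = 0.00643) and Klf4 in CX3CR1+ cells (1.24, adjusted p = 0.0012). In neutrophils Klf4 fell (-1.35, adjusted p = 0.000707). Both genes were named after their values were seen. The median of the list was -0.41, 0.15, 0.07 and -0.91 in CD9+, CX3CR1+ and F4/80- cells and neutrophils.

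**Figure D4:**
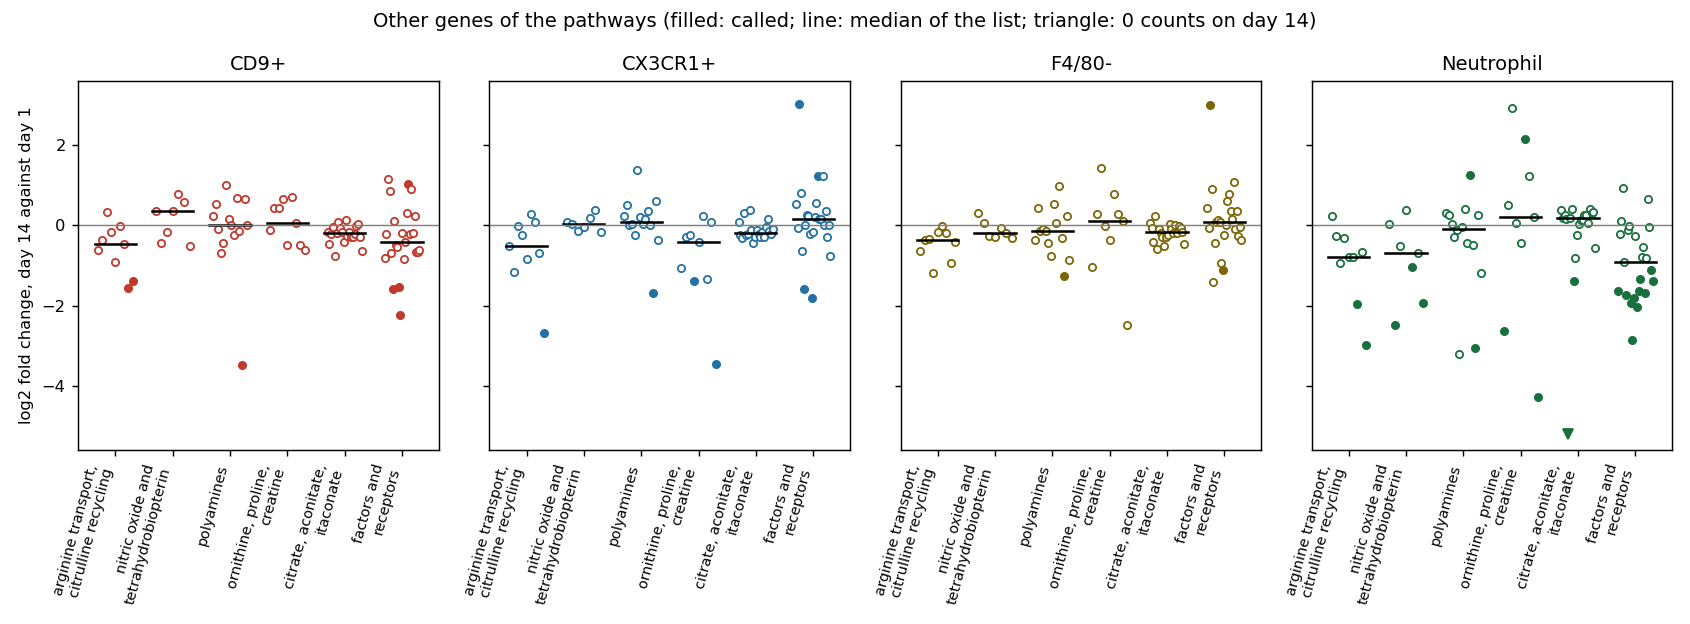
Log2 fold change of day 14 against day 1 for the 82 tested genes of the 6 pathway lists, by population (filled points called, open points not called, black lines the median of each list, the triangle Clybl, drawn at the bottom because it has 0 counts on day 14). Neutrophils show 21 genes called lower, where 10.9% of all genes tested were lower, and Cebpb stands at 3.03 in CX3CR1+ and 3.01 in F4/80- cells.

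The genes whose pattern over the 16 libraries was most like each member are given as a description, with Pearson's r of log2 CPM. For Arg1 they included Flrt3 (r = 0.936) and Spsb1 (0.934). For Arg2 they were Il1b (0.981), Helz2 (0.981) and Sfxn5 (0.977), and for Nos2 the endoplasmic reticulum chaperone Hspa5 (0.965), Ak4 (0.961) and Il1a (0.931). Slc7a2 was most like Flrt2 (0.948), Sema3c (0.944) and Sdc4 (0.943). Ass1 was most like Mybbp1a (0.993), Tars (0.991) and Sept11 (0.991), Odc1 like Ptges3-ps (0.933), Sec63 (0.916) and Hyou1 (0.912), and Acod1 like Rnf19a (0.982), Ezr (0.980) and Ccdc88b (0.973). The points share groups of 2 libraries, so the 16 libraries stand for 8 groups. By Spearman's correlation over the 8 group means, many of these genes were no longer the most alike. The first gene named then stood at place 29 for Arg1, 70 for Arg2, 13 for Nos2 and 7 for Slc7a2. It stood at place 1 for Ass1, 22 for Odc1 and 222 for Acod1. Among the members themselves r was highest for Odc1 with Nos2 (0.874), Arg1 with Slc7a2 (0.862) and Arg1 with Nos2 (0.856), and lowest for Arg2 with Ass1 (-0.770) and Ass1 with Acod1 (-0.731).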

How the data were processed

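The data were RNA-seq libraries of 4 sorted myeloid populations on postoperative day 1 and day 14, with 2 libraries per group, each made from pooled mice. The authors prepared stranded SMART-Seq libraries, removed adapters with Cutadapt, used STAR against the mm10 genome and deposited raw counts per gene over exons, and these counts as deposited were used. All sample columns were mapped to samples by their titles. The deposited table holds 20200 genes.

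The filter on low counts asked for a group mean of 3 CPM or more, from library totals alone, in any of the 8 groups. TMM factors, one edgeR (4.0.16, R 4.3.3) quasi-likelihood fit of 8 group means with 8 residual degrees of freedom, and Benjamini-Hochberg adjustment over all 11998 genes tested gave the 4 changes over time, the 12 population differences and the 6 interactions. Calls needed an adjusted p below 0.05 together with a log2 fold change of 1 or more in either direction. CPM values are scaled by TMM factors, and values per kb use Gencode exon lengths. The study describes the libraries of a group as biological replicates. P-values rest on a spread between libraries estimated for each gene over all 8 groups. They do not measure the spread of the compared pools alone. In CD9+ cells of day 1 the log2 CPM of the 2 libraries differed with an SD of 0.912, against 0.382 to 0.625 elsewhere. Exact intervals cover counting error only. The 7 genes, the pathway lists and the marker lists were chosen with earlier results of these data known. The 7 genes were named wherever called, with full values over time and between neighbours in level, along with up to 3 called genes with the largest absolute change per pathway list and population. Alternatives were DESeq2 (1.42.0), RLE factors, library size only, no filter, no fold change threshold, a replicate block, fits of the compared libraries alone and leaving out each library. The model code was tested on simulated counts with the same dispersion for all genes and changes set in CD9+ cells on day 14. Of 67 genes changed 2-fold, which is the threshold for a call, 34 were recovered. At 4-fold 67 of 67 and at 8-fold 66 of 66 were recovered, and 4 unchanged genes were called. The changed genes were drawn above a minimum mean level, and the wider spread of the CD9+ libraries of day 1 was not copied. Recovery at low counts was therefore not tested. The 3 genes most like each member by Pearson's r were named, except 1 gene for Arg1 that is not reported here.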

Additional observations from a re-analysis of the deposited data

Results flagged for a closer look

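The change from day 1 to day 14 differed between 2 populations, by the interaction test in edgeR's quasi-likelihood fit, in 10 cases. Positive values mean a smaller fall in the population named first, on the log2 scale. For Arg1 the difference was 2.72 between CD9+ and CX3CR1+ cells (adjusted p = 0.00143), 4.50 between CD9+ and F4/80- cells (adjusted p = 0.00441) and 4.41 between CD9+ cells and neutrophils (adjusted p = 0.0038). The last 2 rest on groups with 2 and 1 counts of Arg1 on day 14. They were lost without the first F4/80- library of day 14 (3.498, adjusted p = 0.0681) and without the second neutrophil library of day 14 (3.41, adjusted p = 0.0618).

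For Arg2 the difference was -2.10 between CD9+ and CX3CR1+ cells (adjusted p = 0.0222) and -2.78 between CD9+ cells and neutrophils (adjusted p = 0.000643). The first was lost without the first CX3CR1+ library of day 1 (adjusted p = 0.0623), the first CD9+ library of day 14 (adjusted p = 0.134), or the first (adjusted p = 0.0793) or second (adjusted p = 0.0916) CX3CR1+ library of day 14. For Nos2 it was 4.58 between CD9+ cells and neutrophils (adjusted p = 0.0363), with 2 counts in neutrophils on day 14, and the call was lost when any of 5 libraries was left out: the second neutrophil library of day 1 (adjusted p = 0.0735), or either CD9+ (0.142 and 0.0778) or either neutrophil (0.128 and 0.0866) library of day 14. For Ass1 it was 2.25 between CX3CR1+ cells and neutrophils (adjusted p = 0.00803). For Acod1 it was 2.09 between CD9+ cells and neutrophils (adjusted p = 0.00401), 2.29 between CX3CR1+ cells and neutrophils (adjusted p = 0.00429) and 2.48 between F4/80- cells and neutrophils (adjusted p = 0.000853).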

How the results depend on the processing

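The number of calls among the 7 genes, summed over populations or pairs, stayed within 1.5 times its value under every alternative run, but within CX3CR1+ cells the number over time went from 4 to 2 without the second library of day 1 or the first of day 14. Summed, it was 16 over time (14 to 17 when 1 library was left out), 50 between populations (48 to 54) and 10 for the interactions (7 to 12). DESeq2 gave 16, 53 and 14. The replicate block gave 17, 54 and 12, moved a log2 value by at most 0.112 over 154 differences, gained the 7 calls of Slc7a2, Nos2 and Arg2 given beside those results and lost 0. The labels do not say that replicate numbers pair libraries, and the deviations of libraries with the same number correlated by 0.0132 to 0.144.

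Differences that were not called changed sign in some settings, and the cause was not tested. With scaling by library size these were Nos2 between F4/80- cells and neutrophils on day 14 (0.0349), Ass1 between CD9+ and F4/80- cells on day 1 (-0.15), Odc1 between F4/80- cells and neutrophils on day 1 (0.60, and 0.0713 without the filter) and between CD9+ and CX3CR1+ cells on day 1 (-0.19), and Acod1 between CD9+ and F4/80- cells on day 14 (-0.0461). The last was -0.0121 with RLE factors, -0.019 without the filter and -0.0112 with DESeq2. Leaving out 1 library gave ranges across 0 for Ass1 over time in CX3CR1+ cells (-0.17 to 0.25), Acod1 over time in CX3CR1+ cells (-0.88 to 0.007), Arg1 (-2.83 to 3.27), Nos2 (-3.73 to 3.26) and Slc7a2 (-0.15 to 0.91) between F4/80- cells and neutrophils on day 14, Nos2 between CX3CR1+ cells and neutrophils on day 14 (-0.32 to 4.71) and Slc7a2 between CX3CR1+ and F4/80- cells on day 1 (-0.48 to 0.35). The same held on day 14 for Ass1 between CD9+ and CX3CR1+ cells (-0.14 to 0.29) and between CX3CR1+ and F4/80- cells (-0.0364 to 0.39), for Odc1 between CD9+ and F4/80- cells (-0.0171 to 0.22) and between CX3CR1+ and F4/80- cells (-0.18 to 0.0569) and for Acod1 between CD9+ and F4/80- cells (-0.20 to 0.22), and on day 1 for Odc1 between F4/80- cells and neutrophils (-0.105 to 0.09) and between CD9+ and CX3CR1+ cells (-0.0369 to 0.12). A group left with 1 library was assumed to vary like the others. With 2 pools per group, and with 5 or fewer counts of Arg1 or Nos2 in several groups of day 14, differences among those groups were not detectable at this depth.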
